A study of Mus musculus with 8 samples.

Results

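The genes described here are the enzymes that make fatty acids from acetyl-CoA in the liver, de novo lipogenesis, together with the transcription factors best known for driving them. They were *Acly*, *Acss2*, *Acaca*, *Acacb*, *Fasn*, *Me1*, *Elovl6*, *Scd1*, *Srebf1* and *Mlxipl*, read as gene symbols in a table of read counts. They make 10 of the 19267 genes listed. These are textbook members of the pathway, but they were chosen with earlier results of these data known. Liver RNA came from male C57BL/6 mice that were 6 weeks old when a liquid diet began and 9 weeks old when the liver was taken. WT mice, per the study's methods, carried Cre with an intact *Elf4*, and *Elf4*-/- mice (Elf4fl/fl-Villin-Cre) had lost *Elf4*, an ETS family transcription factor, through Cre under the villin promoter in the intestinal epithelium. Cre under this promoter acts in gut epithelium and liver cells were not its target. A genotype difference below is one between livers of mice of these genotypes. The study's methods do not say whether they were littermates, so other differences between the lines cannot be told apart from the loss of *Elf4*. Each genotype was pair-fed a Lieber-DeCarli liquid diet for 21 days, which held either alcohol at 5% (w/v), named EtOH, or isocaloric maltose dextrin, named Control. The 4 groups, named by genotype and diet as in WT-EtOH, held 2 libraries each, and nothing in the labels says whether a library was 1 mouse or a pool. The p-values below therefore measure the spread between these libraries, which may be technical in part.

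Fatty acid synthesis starts in the cytosol. *Acly* splits citrate exported from mitochondria into acetyl-CoA, and *Acss2* makes acetyl-CoA from free acetate, which is also what the liver releases when it oxidises alcohol. The acetyl-CoA carboxylases turn it into malonyl-CoA, with *Acaca* serving synthesis in the cytosol and *Acacb* sitting on the mitochondrial surface, where its malonyl-CoA holds back fatty acid import by CPT1. *Fasn* builds palmitate from malonyl-CoA with NADPH, part of which comes from the malic enzyme *Me1*. *Elovl6* lengthens palmitate and *Scd1* puts a double bond into the product. *Srebf1* encodes SREBP1, the factor that responds to insulin, and *Mlxipl* encodes ChREBP, the factor that responds to glucose. Fatty liver is the early stage of alcoholic liver disease, which is why the genes are of interest under this diet.

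On GRCm38 (GENCODE M21) all are annotated as protein coding. Chromosome 11 carries 4 of them, *Acly* from 100476353 to 100528000 on the minus strand, *Acaca* from 84129672 to 84401651 on the plus strand, *Fasn* from 120805846 to 120824547 on the minus strand and *Srebf1* from 60199089 to 60222581 on the minus strand. Chromosome 5 carries *Acacb* from 114146535 to 114250761 and *Mlxipl* from 135089890 to 135138382, both on the plus strand. *Acss2* lies on chromosome 2 from 155517948 to 155585724 on the plus strand, *Elovl6* on chromosome 3 from 129532355 to 129638495 on the plus strand, *Me1* on chromosome 9 from 86581371 to 86695953 on the minus strand and *Scd1* on chromosome 19 from 44394455 to 44407879 on the minus strand. Whether counting used the strand was not given in the sources used here. The largest exonic overlap of a member with another gene was 4.24% of its exonic bases, that of *Mlxipl* with the antisense gene *Gm43500*. The exons of *Acss2* overlapped *Gss*, *Acss2os* and *Ggt7* over 3.89%, 3.30% and 1.94% of its bases.

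The promoters of *Acly*, *Fasn*, *Srebf1*, *Acss2* and *Mlxipl* are shown because *Acly*, *Fasn* and *Srebf1* were the members that differed most between the *Elf4*-/--EtOH libraries, where *Acss2* and *Mlxipl* differed the other way and by less. Each sequence is the 250 bases before a RefSeq transcription start on GRCm38.p6, read along the gene's own strand, and *Srebf1* is given at 2 of its 3 starts in the table. Capitals mark the motifs searched on both strands, which were the GC box GGGCGG, the CCAAT box CCAAT, the E-box CACGTG and a sterol response element core written TCACNCCAC.
*Acly*, chr11:100528001-100528250, minus strand: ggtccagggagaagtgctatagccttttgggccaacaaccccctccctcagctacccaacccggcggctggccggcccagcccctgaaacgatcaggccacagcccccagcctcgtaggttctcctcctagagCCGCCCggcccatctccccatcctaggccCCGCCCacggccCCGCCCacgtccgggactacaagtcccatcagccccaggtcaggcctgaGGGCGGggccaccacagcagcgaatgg
*Fasn*, chr11:120824548-120824797, minus strand: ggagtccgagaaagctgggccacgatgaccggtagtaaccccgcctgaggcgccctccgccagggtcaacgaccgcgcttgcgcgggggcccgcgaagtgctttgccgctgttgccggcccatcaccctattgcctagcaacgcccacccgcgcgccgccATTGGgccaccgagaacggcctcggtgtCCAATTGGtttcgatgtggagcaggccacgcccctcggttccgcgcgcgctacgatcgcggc
*Srebf1*, chr11:60220628-60220877, minus strand: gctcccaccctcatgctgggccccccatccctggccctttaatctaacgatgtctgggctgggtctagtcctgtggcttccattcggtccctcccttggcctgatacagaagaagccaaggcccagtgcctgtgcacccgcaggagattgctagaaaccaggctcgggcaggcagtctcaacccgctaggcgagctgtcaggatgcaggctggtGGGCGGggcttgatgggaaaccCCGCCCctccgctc
*Srebf1*, chr11:60210472-60210721, minus strand: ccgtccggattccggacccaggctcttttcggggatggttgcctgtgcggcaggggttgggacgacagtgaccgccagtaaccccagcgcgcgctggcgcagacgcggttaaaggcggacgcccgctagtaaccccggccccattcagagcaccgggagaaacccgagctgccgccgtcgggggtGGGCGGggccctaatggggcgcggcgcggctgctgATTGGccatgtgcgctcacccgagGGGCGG
*Acss2*, chr2:155517793-155518042, plus strand: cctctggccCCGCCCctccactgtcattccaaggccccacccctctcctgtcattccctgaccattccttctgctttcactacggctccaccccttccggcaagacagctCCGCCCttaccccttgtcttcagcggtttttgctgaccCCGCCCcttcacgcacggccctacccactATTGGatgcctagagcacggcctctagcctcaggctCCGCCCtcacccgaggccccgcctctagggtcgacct
*Mlxipl*, chr5:135089640-135089889, plus strand: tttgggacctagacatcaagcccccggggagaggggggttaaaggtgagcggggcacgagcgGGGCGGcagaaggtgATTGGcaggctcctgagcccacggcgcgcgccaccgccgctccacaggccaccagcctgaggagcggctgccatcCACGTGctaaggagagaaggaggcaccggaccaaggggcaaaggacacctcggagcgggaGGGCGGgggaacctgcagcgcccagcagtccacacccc

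Of the 10 genes, 9 had 13 promoter windows in the RefSeq table, and *Scd1* had none there. The only windows of *Acaca* and *Acacb* lay inside the GENCODE gene rather than at its outer end. GC boxes stood in 6 of the 13 windows, against 32.7% of all 32851 promoters of the same length, and CCAAT boxes in 7, against 33.9%. The windows with a GC box had a G and C content of 63.2% to 72.0%, against a median of 52.4% over all promoters. The shares over all promoters were not matched for this content. *Acly* and *Acss2* each held 4 GC boxes, and *Fasn* held 3 CCAAT boxes, of which the pair nearest the start shares 2 bases. The E-box, found in 6.02% of all promoters, was present only in the *Mlxipl* window shown. The sterol response element core, found in 1.05%, was present only in a second *Mlxipl* window, chr5:135106641-135106890. Matches are letters in a window, and a window without one holds only other letters. Variants of a motif that differ from the letters searched were not looked for, so a window without a match may hold one.

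Library totals ran from 6171051 to 9157362 counts, and no member had fewer than 91 counts in a library, the lowest being that of *Acacb* in a WT-Control library. The liver identity of the samples was clear from *Alb*, which stood between 21700 and 42800 CPM in the 8 libraries. CPM is the count relative to the library total after TMM scaling. *Elf4* itself stood between 0.895 and 4.51 CPM with overlapping genotypes (log2 fold change of *Elf4*-/- over WT of −0.06 ± 0.50 SE under EtOH, edgeR, adjusted p = 0.985), which is no check of a deletion made in gut. The share of counts from the 27 mitochondrial genome genes followed the groups. In WT livers it was 33.7% and 23.4% on Control but 12.5% and 10.8% on EtOH. Livers of *Elf4*-/- mice had 18.7% and 18.5% on Control, against 22.1% and 18.3% on EtOH. It thus moved with the WT diet comparison and the genotype comparisons, and its part in the member results was not tested. *Elf4*-/--EtOH was the group whose libraries differed most, with an SD of the log2 difference between them over all genes compared of 0.681, against 0.354 to 0.504 in the other groups. Member results that rest on either of its libraries are given with each left out. Differences are log2 fold changes ± SE from a model of all 8 libraries, with 2 libraries a group, and a call is an adjusted p under 0.05.

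Per length of exon the 10 genes spanned a wide range of levels. The mean over the 8 libraries in CPM per kilobase of exon was 462 for *Scd1* and 149 for *Mlxipl*, followed by *Elovl6* at 39.6, *Srebf1* at 35.6, *Me1* at 30.5, *Fasn* at 27.4, *Acly* at 18.7, *Acss2* at 10.6, *Acacb* at 9.34 and *Acaca* at 3.98. Among neighbours in that order, *Scd1* was above *Mlxipl*, *Mlxipl* above *Elovl6* and *Fasn* above *Acly* in all 8 libraries. The other neighbours changed places in at least 1 library. Over the libraries *Acaca* ran from 3.09 to 6.09 CPM per kilobase and *Srebf1* from 7.09 to 64.7.

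**Figure D1:**
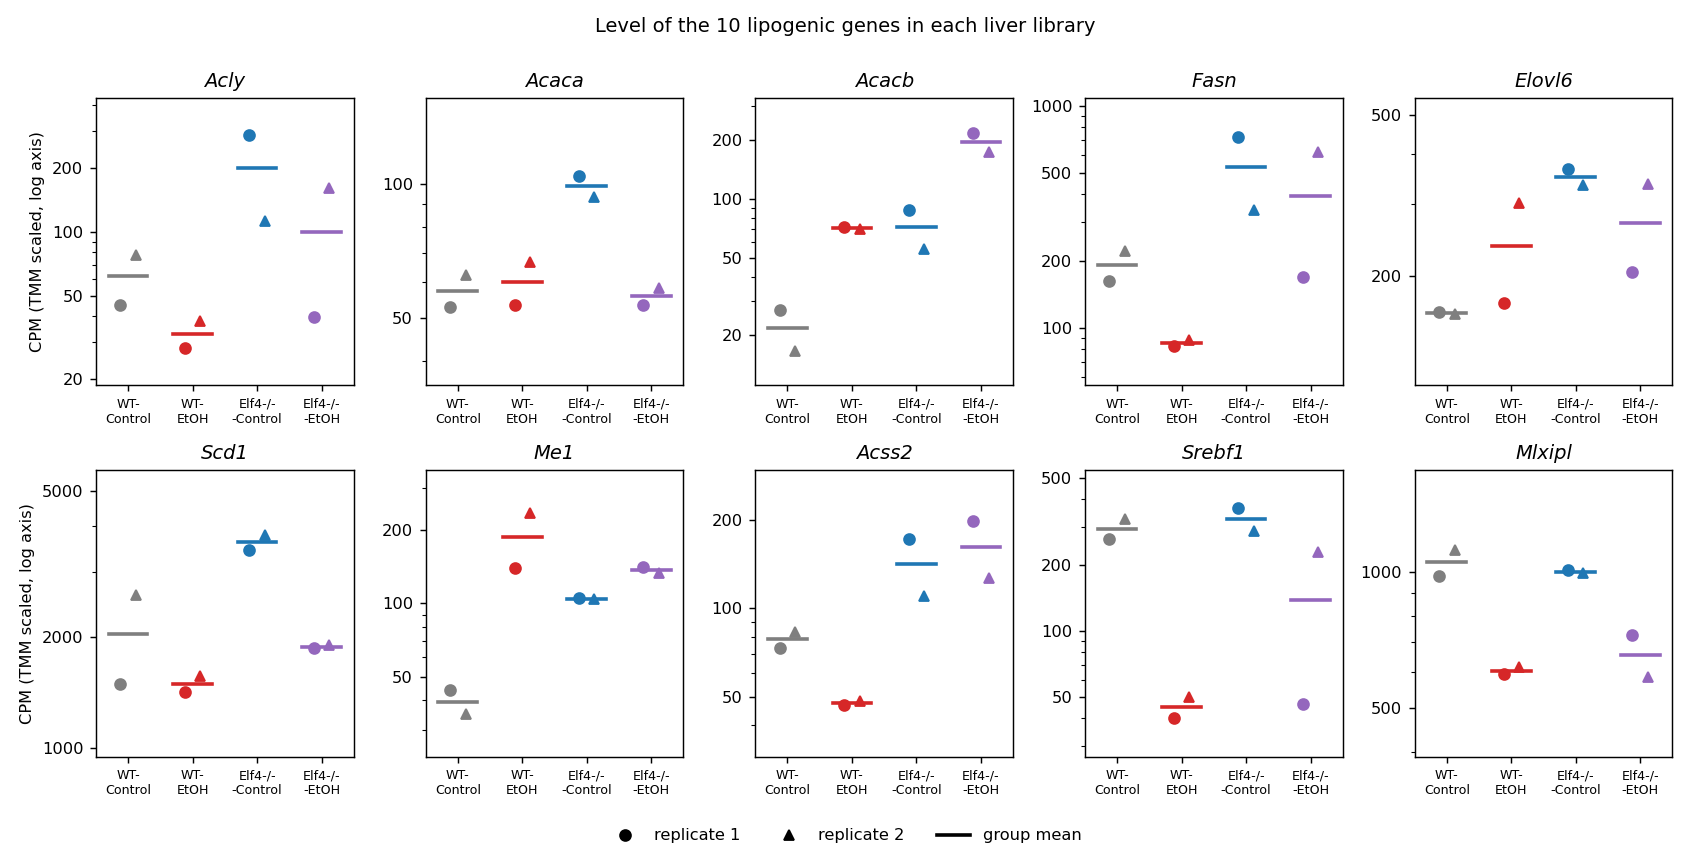
Level of each of the 10 genes in CPM after TMM scaling, on a log axis with its own range in each panel, for the 2 libraries of each group (circle, replicate 1; triangle, replicate 2) with the group mean as a bar. Acacb and Acss2 are high in both Elf4-/--EtOH libraries. For Acly and Srebf1 the circle of that group lies near the WT-EtOH libraries and the triangle far above them. For Fasn the circle, at 169 CPM, lies above the WT-EtOH libraries, at 82.4 and 88.2 CPM, and the triangle higher still, at 619 CPM.

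The enzymes that supply acetyl-CoA stood higher in *Elf4*-/- livers. In WT livers *Acss2* measured 73.3 and 83.3 CPM on Control and 46.7 and 48.1 CPM on EtOH, and in *Elf4*-/- livers 173 and 110 CPM on Control and 198 and 127 CPM on EtOH. Its genotypes did not overlap under either diet, and averaged over the diets it rose in *Elf4*-/- by 1.32 ± 0.20 (SE) on the log2 scale, or 2.49-fold (edgeR, adjusted p = 0.0462). Under EtOH alone the difference was 1.78 ± 0.28 (edgeR, adjusted p = 0.0521), and it was 1.43 and 2.05 when *Elf4*-/--EtOH replicate 1 or 2 was left out. The averaged call was lost without any 1 of the 6 libraries of the other groups, at adjusted p of 0.0567 to 0.355 (edgeR), while its value stayed between 1.14 and 1.46. In WT livers *Acly* measured 45.3 and 77.8 CPM on Control and 28.2 and 37.8 CPM on EtOH, and in *Elf4*-/- livers 287 and 113 CPM on Control and 39.7 and 161 CPM on EtOH. All *Elf4*-/- libraries were above the WT libraries on the same diet, but under EtOH replicate 1 was only just above. The fitted differences of *Acly*, 1.70 ± 0.60 under Control and 1.61 ± 0.60 under EtOH, did not pass (edgeR, adjusted p = 0.568 and 0.396). The value under EtOH depended on which *Elf4*-/--EtOH library was used, being 0.26 when replicate 2 was left out and 2.29 when replicate 1 was (edgeR, adjusted p = 0.863 and 0.0384).

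The acetyl-CoA carboxylases behaved differently from each other. In WT livers *Acacb*, the mitochondrial form, measured 27.0 and 16.7 CPM on Control and 71.9 and 69.9 CPM on EtOH, and in *Elf4*-/- livers 88.0 and 55.3 CPM on Control and 218 and 173 CPM on EtOH. Both genotype and diet separated its libraries without overlap. It rose with EtOH by 1.70 ± 0.30 in WT (3.24-fold, edgeR, adjusted p = 0.00511) and by 1.44 ± 0.28 in *Elf4*-/- (2.72-fold, adjusted p = 0.0309), and it rose in *Elf4*-/- over both diets by 1.59 ± 0.20 (3.01-fold, adjusted p = 0.0252). The WT diet call held without any single library. The call in *Elf4*-/- was lost without either WT-EtOH library (edgeR, adjusted p = 0.0715 and 0.072), either *Elf4*-/--Control library (0.114 and 0.256) or *Elf4*-/--EtOH replicate 1 (0.0606), and in the 4 libraries of that genotype alone it was 0.111. The genotype call was lost without WT-Control replicate 2 (edgeR, adjusted p = 0.107), either WT-EtOH library (0.209 and 0.192) or *Elf4*-/--Control replicate 1 (0.0988).

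In WT livers *Acaca*, the cytosolic form, measured 52.8 and 62.2 CPM on Control and 53.4 and 66.8 CPM on EtOH, and in *Elf4*-/- livers 104 and 93.4 CPM on Control and 53.4 and 58.2 CPM on EtOH. Only the *Elf4*-/--Control pair stood above the rest, and the other 6 libraries overlapped. Its diet difference was 0.07 ± 0.20 in WT and −0.82 ± 0.20 in *Elf4*-/- (edgeR, adjusted p = 0.837 and 0.0543). The latter was past the threshold with DESeq2 (adjusted p = 0.029).

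The number of *Acacb* counts per *Acaca* count needs no scaling between libraries, since both come from the same library. In WT it was 0.512 and 0.269 on Control and 1.35 and 1.05 on EtOH, and in *Elf4*-/- it was 0.847 and 0.593 on Control and 4.08 and 2.97 on EtOH. *Acacb* thus had fewer counts than *Acaca* in every Control library and more in every EtOH library, over a range of 15.2-fold, and the groups did not overlap one another. A ratio shows unequal change of the genes and not which of them changed. The share of all gene pairs whose ratio separates the groups in this way was not computed.

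**Figure D2:**
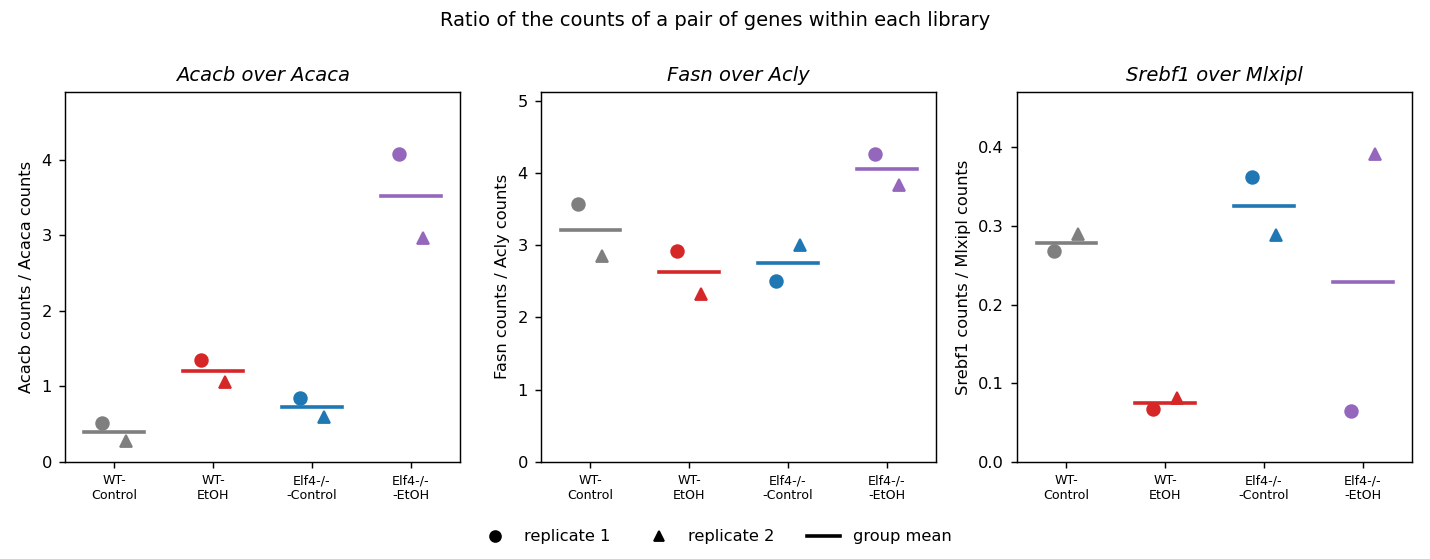
Ratio of the counts of a pair of genes within each library, on linear axes from 0 (circle, replicate 1; triangle, replicate 2; bar, group mean). The ratio of Acacb to Acaca separates the groups and reaches 4.08 in Elf4-/--EtOH, that of Fasn to Acly stays between 2.33 and 4.27, and that of Srebf1 to Mlxipl is 0.0643 and 0.392 in the Elf4-/--EtOH libraries.

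Fatty acid synthase followed *Acly*. In WT livers *Fasn* measured 162 and 222 CPM on Control and 82.4 and 88.2 CPM on EtOH, and in *Elf4*-/- livers 722 and 339 CPM on Control and 169 and 619 CPM on EtOH. No genotype pair overlapped, and the lower *Elf4*-/--EtOH library was near the WT-Control level. Its difference under EtOH was the largest of the members, 2.21 ± 0.55 or 4.62-fold, and did not pass with edgeR (adjusted p = 0.199) but did with DESeq2 (adjusted p = 0.000274). It was 2.86 without *Elf4*-/--EtOH replicate 1 and 0.98 without the other library. Over both diets it was 1.84 ± 0.38, which did not pass with edgeR (adjusted p = 0.152). It did with DESeq2 (adjusted p = 3.79e-06) and with edgeR without a filter (adjusted p = 0.0404). The log2 fold change over both diets was 2.17 with *Elf4*-/--EtOH replicate 1 out and 1.23 with replicate 2 out. Either fit keeps 1 library of that group, so the spread between its libraries no longer enters. The number of *Fasn* counts per *Acly* count varied only 1.83-fold over the 8 libraries, from 2.33 to 4.27.

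*Me1*, a source of NADPH, was raised by EtOH in WT livers. In WT livers it measured 43.8 and 35.0 CPM on Control and 140 and 237 CPM on EtOH, and in *Elf4*-/- livers 105 and 104 CPM on Control and 142 and 133 CPM on EtOH. The rise in WT was 2.26 ± 0.27, or 4.79-fold (edgeR, adjusted p = 0.0017), and this call held without any single library. With *Elf4*-/- the EtOH libraries were also above the Control libraries, by 0.40 ± 0.26, which did not pass (edgeR, adjusted p = 0.393). The difference between the diet effects, an interaction of −1.85 ± 0.37, did not pass with edgeR (adjusted p = 0.22, unadjusted p = 0.000502) but did with DESeq2 (adjusted p = 0.00223). Under Control *Me1* was higher in *Elf4*-/- by 1.40 ± 0.27 without passing (edgeR, adjusted p = 0.176), again past the threshold with DESeq2 (adjusted p = 0.00129), and under EtOH the genotypes overlapped. Within libraries there were 0.145 to 0.306 *Me1* counts per *Fasn* count in the Control groups, 1.70 and 2.68 in WT-EtOH, and 0.839 and 0.215 in *Elf4*-/--EtOH.

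The enzymes that modify the product did not pass a genotype test under either diet. In WT livers *Elovl6* measured 163 and 161 CPM on Control and 171 and 302 CPM on EtOH, and in *Elf4*-/- livers 366 and 335 CPM on Control and 204 and 337 CPM on EtOH. In WT livers *Scd1* measured 1490 and 2600 CPM on Control and 1420 and 1570 CPM on EtOH, and in *Elf4*-/- livers 3450 and 3800 CPM on Control and 1870 and 1900 CPM on EtOH. For both genes the *Elf4*-/--Control pair lay above the WT-Control pair, and under EtOH the genotypes overlapped for *Elovl6* and lay close together for *Scd1*. The genotype difference was 1.11 ± 0.32 for *Elovl6* and 0.83 ± 0.31 for *Scd1* under Control, against 0.19 ± 0.31 and 0.34 ± 0.31 under EtOH. Their tests gave no call (edgeR, adjusted p = 0.408, 0.61, 0.885 and 0.769), and neither did the interaction (edgeR, adjusted p = 0.525 and 0.759). In *Elf4*-/- *Scd1* was lower under EtOH by a log2 fold change of −0.94 ± 0.31, past the threshold with DESeq2 (adjusted p = 0.015) and not with edgeR (adjusted p = 0.12).

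The regulators were lower under EtOH. In WT livers *Srebf1* measured 263 and 326 CPM on Control and 40.0 CPM and 1.25 times that on EtOH, and in *Elf4*-/- livers 364 and 286 CPM on Control and 46.7 and 230 CPM on EtOH. The WT-EtOH libraries and *Elf4*-/--EtOH replicate 1 formed a low set, and *Elf4*-/--EtOH replicate 2 approached the Control libraries. In WT, *Srebf1* fell to 0.153 of its Control level, a log2 fold change of −2.71 ± 0.57 (edgeR, adjusted p = 0.0109), with an adjusted p of 0.0844 and 0.0754 when either WT-EtOH library was left out. In *Elf4*-/- the diet value was −1.23 ± 0.54 (edgeR, adjusted p = 0.228), and it was −2.82 without *Elf4*-/--EtOH replicate 2 (edgeR, adjusted p = 0.00024). Leaving out replicate 1 instead gave −0.50 (edgeR, adjusted p = 0.388). Under Control its genotypes overlapped, with a log2 fold change of 0.15 ± 0.54. Under EtOH they overlapped as well, and the genotype value of 1.62 ± 0.55 (edgeR, adjusted p = 0.341) became 2.36 with replicate 1 left out and 0.045 with replicate 2 left out (edgeR, adjusted p = 0.00207 and 0.964).

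In WT livers *Mlxipl* measured 980 and 1120 CPM on Control and 594 and 616 CPM on EtOH, and in *Elf4*-/- livers 1010 and 993 CPM on Control and 726 and 586 CPM on EtOH. The genotypes overlapped under both diets, and the diets did not overlap in either genotype. It fell in WT to 0.575 of the Control level, a log2 fold change of −0.80 ± 0.24 (edgeR, adjusted p = 0.039). This call was lost without any 1 of the WT or *Elf4*-/--Control libraries (edgeR, adjusted p = 0.0673 to 0.183), and with scaling by library totals alone, which moved the median of all genes up by 0.43, it was −0.37 (edgeR, adjusted p = 0.264). In *Elf4*-/- the value was −0.61 ± 0.24 (edgeR, adjusted p = 0.177).

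**Figure D3:**
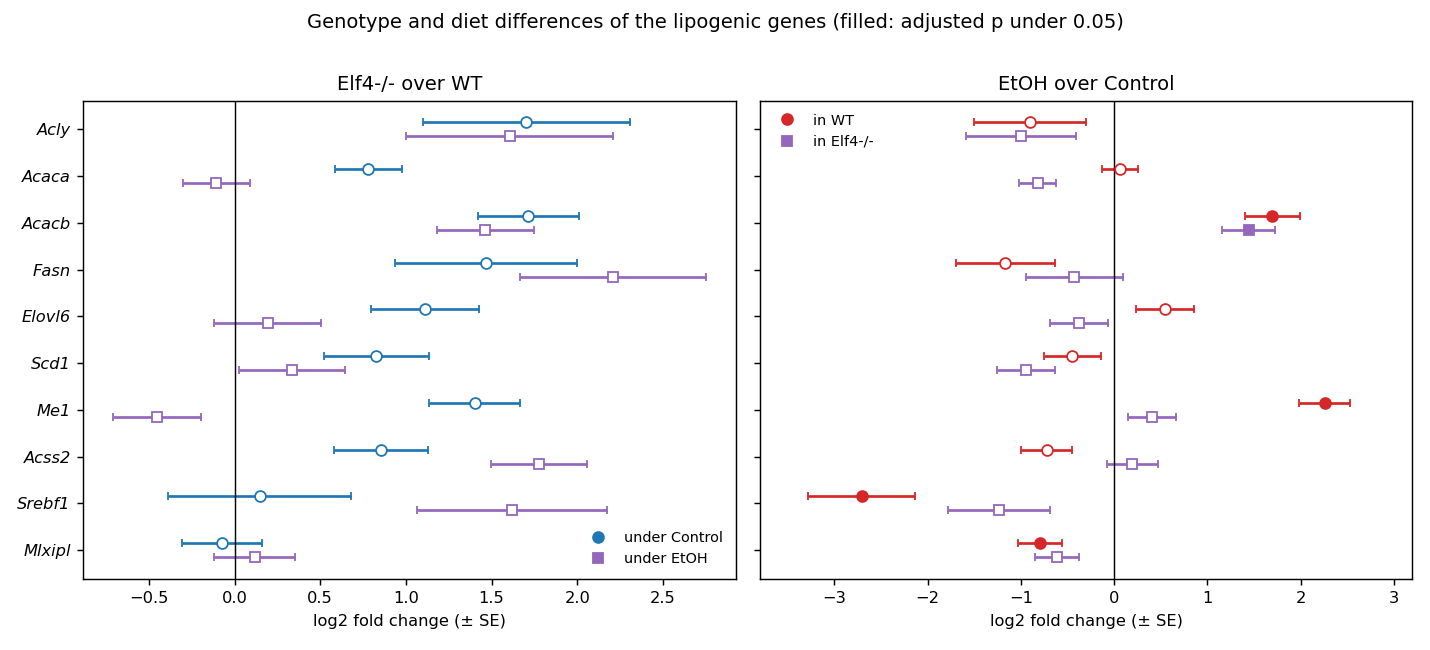
Fitted log2 fold changes with their standard errors (bars), of Elf4-/- over WT under each diet on the left and of EtOH over Control in each genotype on the right, with filled marks for an adjusted p under 0.05 (edgeR). Every mark on the left is open, and the filled marks on the right are Acacb, Me1, Srebf1 and Mlxipl in WT and Acacb in Elf4-/-.

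The genotype comparison under EtOH asked how the livers differed after alcohol, and none of the 10 members passed. At an adjusted p under 0.05 edgeR called 0.143% of the 13993 genes tested. At an unadjusted p under 0.05 it called 5 members, *Acly*, *Acacb*, *Fasn*, *Acss2* and *Srebf1*, all higher in *Elf4*-/-, against 10.5% of all genes. DESeq2 called 3, *Acacb*, *Fasn* and *Acss2*, against 1.29%. The median log2 fold change of the members was 0.90, beside 0.001 over all genes. In 5 members, *Acly*, *Acacb*, *Fasn*, *Scd1* and *Acss2*, both *Elf4*-/- libraries were above both WT libraries, as in 20.0% of all genes.

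The genotype comparison under Control asked whether the livers differed without alcohol, and again no member passed. edgeR called 0.0143% of all genes at an adjusted p under 0.05, and 8 of the members at an unadjusted p under 0.05, all but *Srebf1* and *Mlxipl* and all higher in *Elf4*-/-, against 7.31% of all genes. DESeq2 called *Me1* and *Acacb*, where it called 0.565% of all genes. The same 8 members had both *Elf4*-/- libraries above both WT libraries, which held for 20.0% of all genes, and the median of the members was 0.98, beside 0.012. Averaged over the diets edgeR called 2 members, *Acacb* and *Acss2*, against 0.136% of all genes. DESeq2 called 3 there, *Acacb*, *Acss2* and *Fasn*, among 118 of the 13993 genes. In 5 members (*Acly*, *Acacb*, *Fasn*, *Scd1* and *Acss2*) the *Elf4*-/- libraries lay above the WT libraries under each diet, against 3.61% of all genes, and no member lay below under each diet. The comparisons under EtOH and Control share no library, and both share libraries with the diet comparisons. Because the members were chosen with earlier results of these data known, the shares of all genes beside them are a description and no test.

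The diet comparisons asked how the genes responded to alcohol in each genotype. In WT, 2 members rose (*Acacb* and *Me1*) and 2 fell (*Srebf1* and *Mlxipl*), in a comparison in which edgeR called 21.6% of all genes. In *Elf4*-/- only *Acacb* passed, where 2.89% of all genes did. The medians of the members were −0.59 and −0.52, beside 0.012 and 0.013 over all genes. Their directions differed within the pathway, since *Acacb* and *Me1* had EtOH libraries above Control libraries in both genotypes, and *Srebf1* and *Mlxipl* had them below in both. Such separation was common, since EtOH libraries lay above Control libraries in 34.1% of all genes in WT and 25.8% in *Elf4*-/-, and below in 32.7% and 26.3%. The interaction, the difference between the diet effects, called 0% of all genes with edgeR and no member. At an unadjusted p under 0.05 it called 3 members, *Acaca*, *Acss2* and *Me1*, against 10.1%, and DESeq2 called *Me1* alone, against 0.793%.

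*Acly*, *Fasn* and *Srebf1* differed strongly between the *Elf4*-/--EtOH libraries. Replicate 2 was above replicate 1 by 4.89-fold for *Srebf1*, 4.04-fold for *Acly* and 3.65-fold for *Fasn*. Of 9398 genes compared, 98.9%, 98.3% and 98.1% differed less between these libraries. *Me1*, *Scd1* and *Acaca* were within 1.07-fold, 1.01-fold and 1.09-fold of each other in the same libraries, and *Acacb* and *Acss2* were lower in replicate 2, by 1.26-fold and 1.56-fold. In *Elf4*-/--Control, replicate 1 was the higher for *Acly*, by 2.54-fold, and *Fasn*, by 2.13-fold, while *Srebf1* differed by 1.27-fold. Without *Elf4*-/--EtOH replicate 1 the comparison under EtOH called *Acly* (2.29), *Fasn* (2.86), *Srebf1* (2.36) and *Acss2* (1.43), among 154 genes in all. Without replicate 2 it called *Acss2* (2.05) and *Acacb* (1.61), among 366, and the values of *Acly*, *Fasn* and *Srebf1* were then 0.26, 0.98 and 0.045 and did not pass. Wherever a library is left out, its group keeps 1 library, which is taken to vary like the other groups. The spread between the libraries of that group then no longer enters the test, so a call gained this way is not added support.

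**Figure D4:**
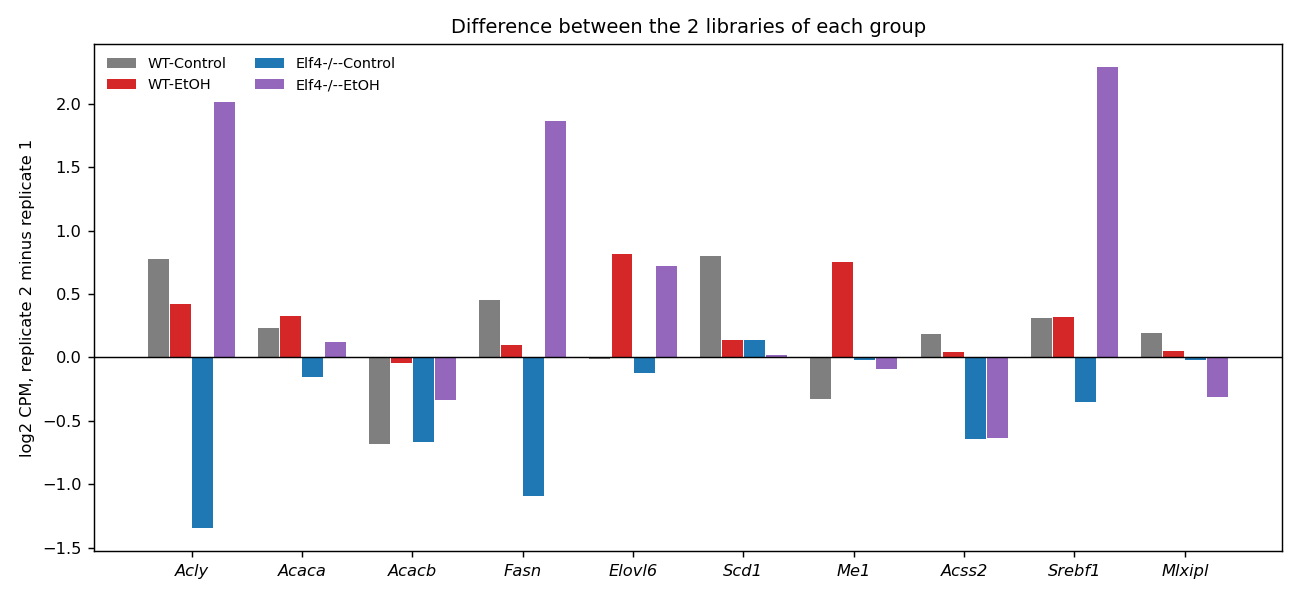
Difference between the 2 libraries of each group for each gene, as log2 CPM of replicate 2 minus that of replicate 1, with bars from 0. In Elf4-/--EtOH the bars of Acly, Fasn and Srebf1 reach 2.01, 1.87 and 2.29, those of Scd1 and Me1 stay at 0.02 and −0.09, and in Elf4-/--Control the bars of Acly and Fasn point down to −1.34 and −1.09.

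Other genes differed between the *Elf4*-/--EtOH libraries as well, and were chosen here after their values were seen. *Igfbp1*, a gene that insulin represses, stood at 437 CPM in replicate 1 and 11.5 in replicate 2. *Insig2*, which holds SREBP in the endoplasmic reticulum, stood at 340 and 53.7, and *Mid1ip1*, which activates the carboxylases, at 9.40 and 58.4. The related *Insig1* went the other way from *Insig2*, at 193 and 369. Replicate 1 was thus high for *Igfbp1* and *Insig2* and low for *Mid1ip1* and *Insig1*. Among clock genes, which follow the time of day, *Arntl* stood at 13.5 and 1.59, and *Dbp* at 19.8 and 92.3. Elsewhere, WT-Control replicate 2 held 139 CPM of *Igfbp1* with 326 of *Srebf1*, and in WT-EtOH *Insig2* was 97.0 and 40.9 CPM where *Srebf1* was low in both libraries. No relation of these genes to *Srebf1* over the 8 libraries was computed. The part of feeding state and time of day in the *Acly*, *Fasn* and *Srebf1* levels was not tested.

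The genes around the pathway were read as lists chosen by role. The strongest genotype result among them was *Thrsp*, a nuclear protein that promotes lipogenic gene expression, at 99.9 and 103 CPM on Control and 26.8 and 42.6 CPM on EtOH in WT, against 518 and 550 CPM on Control and 382 and 444 CPM on EtOH in *Elf4*-/-. Its genotypes were far apart under both diets, and its libraries differed by 1.58-fold in WT-EtOH and by at most 1.16-fold in the other groups. It rose in *Elf4*-/- by 3.57 ± 0.28 under EtOH and 2.39 ± 0.26 under Control (edgeR, adjusted p = 0.00173 and 0.0255). It was the only gene to pass a genotype test among 7 tested co-regulators, and no gene passed one among 9 genes of citrate export and NADPH supply, 11 of SREBP processing and LXR control, 9 of the ChREBP partner and the carbohydrate response, 10 further elongases and desaturases, 11 of fatty acid activation and esterification, 9 of insulin signalling or 10 of the fasting response.

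The counts of list genes that passed with EtOH in WT stand against the 21.6% of all genes called there. In this comparison *Thrsp* fell by 1.55 on the log2 scale, as did the coactivator *Ppargc1b* by 1.57, while the kinase subunit *Prkaa2* of AMPK rose by 0.83 (edgeR, adjusted p = 0.0045, 0.0158 and 0.028). In the same test 2 of 9 genes of citrate export and NADPH supply rose, the pentose phosphate enzymes *Tkt* by 1.02 and *Pgd* by 0.99 (edgeR, adjusted p = 0.0117 and 0.016). Of 11 genes of SREBP processing and LXR control 2 fell, *Scap*, the escort of SREBP, by 1.15 and *Usf1*, a factor that binds the *Fasn* promoter, by 0.70 (edgeR, adjusted p = 0.00813 and 0.0315). Of 9 genes of the ChREBP partner and the carbohydrate response, the glucose transporter *Slc2a2* fell by 1.41 and *Txnip* rose by 2.46 (edgeR, adjusted p = 0.0081 and 0.0192), so that the passing genes of this list went in both directions. The insulin signalling genes *Irs1* and *Mtor* fell by 0.90 and 0.60 (edgeR, adjusted p = 0.0287 and 0.0383), 2 of 9.

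Of 10 further elongases and desaturases, *Scd2* and *Hsd17b12* rose with EtOH in WT by 2.58 and 1.17, and *Elovl3* fell by 2.41 (edgeR, adjusted p = 0.00459, 0.0111 and 0.000995). Of 11 genes of activation and esterification the acyl-CoA synthetases *Acsl1* and *Acsl5* rose by 1.60 and 0.81 (edgeR, adjusted p = 0.00563 and 0.0184). Fasting response genes passed in both directions in WT, with *Pdk4*, *Fgf21* and *Acot1* higher and *Pck1* and *Ppargc1a* lower, 5 of 10. In *Elf4*-/- the passing genes of these pathway lists were *Pklr*, which fell by 1.46, and *Pdk4* and *Acot1*, which rose (edgeR, adjusted p = 0.0496, 0.0456 and 0.00516). The level of *Pdk4* there rested mostly on replicate 1, at 219 and 8.36 CPM on EtOH against 3.18 and 0.448 on Control. *Acot1* was high in both EtOH libraries, at 86.7 and 45.4 CPM against 4.71 and 8.5 on Control.

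Markers of other liver cells moved with the diet in WT, where the members *Acacb* and *Me1* rose and *Srebf1* and *Mlxipl* fell. All 6 Kupffer cell markers rose there, and their summed level was 180 to 244 CPM in WT-Control and 558 to 621 in WT-EtOH. All 5 sinusoidal endothelium markers rose, with sums of 44.0 and 74.4 CPM in WT-Control against 206 and 252 in WT-EtOH. Of 5 stellate cell markers 3 rose, with sums of 25.4 and 63.6 CPM against 223 and 293. Of 6 hepatocyte markers *Apoa1* fell, and their sum was 57700 to 75900 CPM in WT-Control and 34400 to 39600 in WT-EtOH. Of the adipocyte markers, *Fabp4* rose, from 2.94 and 9.14 CPM to 24.4 and 36.7, while *Cfd* was at most 1.12 CPM in any library, and the other 4 were not analysed here. *Alas2* of 3 red blood cell genes fell, and no tested marker of bile duct, neutrophil, intestinal epithelium or pancreatic acinus passed in any comparison. Among *Elf4*-/- livers, where *Acacb* rose with EtOH, the Kupffer cell marker *Marco* rose too, with sums of that list of 174 and 168 CPM on Control and 230 and 226 on EtOH, and stellate cell sums were 109 and 77.0 CPM against 303 and 179. In bulk liver fewer cells of a type and less RNA per cell cannot be told apart, and the part of these cells in the member results was not tested.

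In the genotype comparison under EtOH, 2 of the 6 Kupffer cell markers, *Clec4f* and *Cd5l*, were lower in *Elf4*-/- (edgeR, adjusted p = 0.0418 and 0.0268), with a summed level of the list of 226 to 230 CPM against 558 to 621. All 6 had an unadjusted p under 0.05 there (edgeR), against 10.5% of all genes. Under Control no marker of any cell type list passed between genotypes. At an unadjusted p under 0.05 (edgeR) there were 4 of 5 endothelium and 3 of 5 stellate cell markers, against 7.31% of all genes, and none of the other cell type lists. Median log2 fold changes were 0.98 for endothelium and 0.97 for stellate cells, where the members had 0.98. They were −0.29 for Kupffer cells, −0.24 for bile duct and 0.14 for hepatocytes. The summed endothelium level was 110 and 112 CPM in *Elf4*-/--Control against 44.0 and 74.4 in WT-Control, and the stellate sum 77.0 and 109 against 25.4 and 63.6. Hepatocyte sums were 69800 to 78200 CPM in *Elf4*-/--Control. The part of these cells in the genotype values of the members was not tested. Summed over the clock list, levels were 505 to 802 CPM in WT-EtOH and 511 to 813 in *Elf4*-/--EtOH. On Control they were 1360 and 1370 CPM in WT and 1680 and 1540 in *Elf4*-/-. In the WT diet comparison 4 of 11 tested clock genes passed, where 21.6% of all genes did, with a median log2 fold change of −0.22. For the diet in *Elf4*-/- only *Nr1d1* passed, which fell, where 2.89% of all genes did. There 10 of the 11 had an unadjusted p under 0.05 (edgeR), with a median of −1.06. Between genotypes under Control none passed, but 6 of the 11 had an unadjusted p under 0.05 (edgeR), against 7.31% of all genes, with a median of 0.33. The part of the clock in the genotype and diet values of the members was not tested.

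The likeness of other genes to the members was taken as the Pearson correlation, over the 8 libraries and among 9388 genes, with the mean of the members' centred log2 CPM. In WT that mean was −0.43 and −0.23 on Control and −0.69 and −0.40 on EtOH, and in *Elf4*-/- it was 0.86 and 0.43 on Control and −0.05 and 0.51 on EtOH. All WT libraries were below all *Elf4*-/- libraries, though *Elf4*-/--EtOH replicate 1 only narrowly. The share of all genes with such a separation was not computed. *Acaca*, *Elovl6*, *Me1*, *Srebf1* and *Mlxipl* each overlapped between genotypes under EtOH. The likest gene was the delta-6 desaturase *Fads2* (r = 0.97), at 156 and 208 CPM on Control and 139 and 128 CPM on EtOH in WT, against 528 and 382 CPM on Control and 209 and 492 CPM on EtOH in *Elf4*-/-. It was followed by the pentose phosphate enzyme *Rpia* (0.969), *Ccdc50* (0.942), *Fads3* (0.937), *Bhlhe40* (0.936), *Miga2* (0.927), *Ndufaf4* (0.924), *Zdhhc21* (0.923), *Celsr1* (0.922) and *Traf3* (0.905). Among the members themselves, the correlation over the 8 libraries was 0.967 for *Acly* with *Fasn*, 0.868 for *Acaca* with *Scd1*, −0.026 for *Acaca* with *Acacb* and −0.786 for *Me1* with *Mlxipl*. These correlations describe libraries that share groups, so the group differences enter them.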

How the data were processed

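Total RNA of mouse liver was extracted with Trizol and sequenced in 8 paired-end libraries on the Illumina HiSeq platform. Per the study's methods and the submitters' processing notes, the authors checked the reads with FastQC, mapped them with HISAT2 to mm10, used SAMtools to sort the alignments, counted reads per gene with HTSeq and tested the counts with DESeq2. Versions, the annotation, the strand setting and the handling of reads shared between genes were not given in the sources used here, so counts of overlapping genes could be split or lost. The deposited table holds whole-number counts per gene symbol that the authors did not normalise, in 1 column per library, and no replicates were pooled. Its 968 empty lines and 2 empty columns were left out. Groups and replicate numbers came from the sample labels.

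The filterByExpr function, given the groups, kept 13993 genes, and these held 99.8% or more of every library. All 8 libraries entered 1 model of 4 groups in edgeR 4.0.16 under R 4.3.3 with TMM factors, and each contrast was tested with the quasi-likelihood test and Benjamini-Hochberg adjustment over all genes tested, with a threshold of 0.05. Genotype over both diets is the mean of the genotype differences under EtOH and Control. The common biological coefficient of variation was 22.7%. The SE is the size of the log2 fold change over the square root of its F value. Log2 CPM used a prior count of 2. The procedure was also run on simulated counts with the same spread in every group. The real groups differed in spread, so that run says nothing about the *Elf4*-/--EtOH libraries, and no result here rests on it.

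The members and lists were chosen with earlier results of these data known. Every member is named. From each pathway list every gene that passed in a contrast may be named or, where none passed, the gene with the largest log2 fold change, and the 10 likest genes were taken among genes averaging at least 50 counts. *Igfbp1* and *Mid1ip1* were named outside this rule, after their values were seen. Of 148 list genes 139 were in the table, and the rest were not analysed here. Lists were described by counts, with no set test. Coordinates came from GENCODE M21 on GRCm38 and promoter sequences from RefSeq on GRCm38.p6. The alternatives were DESeq2 1.42.0, its size factors, library totals alone, no filter, a mean of at least 50 counts, only the libraries compared, the replicate number as a block, and each library left out.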

Additional observations from a re-analysis of the deposited data

How the results depend on the processing

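Of 940 comparisons of a single member with its value under an alternative, 841 kept direction and side of the threshold, 42 newly passed, 30 no longer passed and 27 changed sign. The count of members called under EtOH between genotypes, 0 with edgeR, was 3 with DESeq2, 2 without a filter and 0 to 4 with a library left out. Under Control, also 0, it was 2 with DESeq2, 1 without a filter, 1 with only the libraries compared and 0 to 2 with a library left out. Over both diets, 2 members became 3 with DESeq2, 3 without a filter, 1 with library totals alone, 1 among genes averaging 50 counts or more and 0 to 5 with a library left out. For the diet in WT, 4 became 7 with only the libraries compared and 2 to 6 with a library left out. For the diet in *Elf4*-/-, 1 became 3 with DESeq2, 2 among genes averaging 50 counts or more, 0 with only the libraries compared and 0 to 5 with a library left out. The interaction, with 0, gave 1 with DESeq2 and 0 to 1 with a library left out. The cause of these changes was not tested.

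With a library left out, the median of the members ran from 0.26 to 1.05 for genotype under EtOH, from −0.81 to −0.22 for the diet in WT, from −0.85 to −0.24 for the diet in *Elf4*-/- and from −0.51 to 0.16 for the interaction. Library totals alone moved the median of all genes by −0.23, 0.23, 0, 0.43, −0.03 and −0.47 in the order genotype under EtOH, under Control, over both diets, diet in WT, diet in *Elf4*-/- and interaction. With it, the members' median was −0.16 for the diet in WT and −0.66 for the interaction, *Elovl6* was −0.038 and *Mlxipl* −0.12 for genotype under EtOH, and *Mlxipl* was 0.16 under Control and −0.28 for the interaction.

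Signs that turned with a single library belonged to differences that did not pass. Their ranges for genotype under EtOH were −0.27 to 0.063 for *Acaca*, −0.22 to 0.66 for *Elovl6* and −0.040 to 0.26 for *Mlxipl*. For genotype under Control they were −0.033 to 0.32 for *Srebf1* and −0.16 to 0.036 for *Mlxipl*, and over both diets −0.054 to 0.095 for *Mlxipl*. For the diet in WT they were −0.11 to 0.22 for *Acaca* and −0.80 to 0.007 for *Scd1*. For the diet in *Elf4*-/- they were −1.67 to 0.22 for *Fasn* and −0.16 to 0.55 for *Acss2*. For the interaction they were −1.46 to 0.73 for *Acly*, −0.64 to 0.12 for *Acacb*, −0.50 to 1.39 for *Fasn* and −0.11 to 2.21 for *Srebf1*.

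The replicate numbers did not pair the libraries, since deviations of same-numbered libraries correlated between −0.134 and 0.114 over 9398 genes in the 6 pairs of groups. With the replicate number as a block, 1 member was called over both diets, *Acacb*, and 3 for the diet in WT, without *Mlxipl*, and the other counts of members called were as without it. With the WT-EtOH numbers crossed in the block, chosen after seeing the data because the WT-Control and WT-EtOH numbers correlated at −0.134, the counts were 0, 0, 2, 4, 1 and 0 in the order above. With 2 libraries a group, a difference that did not pass may still exist.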
